A study of Caenorhabditis elegans with 6 samples.

Results

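The ERI complex and the other proteins of the 26G-RNA pathway are represented here by 9 genes, namely rrf-3, eri-1, eri-3, eri-5, dcr-1, rde-4, ergo-1, eri-6 and eri-7. They were taken by symbol, and all 9 matched 1 identifier each among the 22185 genes of the deposited tables. What follows describes the 22G-RNAs that lie antisense to these genes, that is, the genes as targets and not their mRNA or protein. Small RNAs came from whole gravid adults of Caenorhabditis elegans, collected 63 hours after plating. Wild-type was strain N2, with 3 libraries. The lotr-1 mutants were strains RFK592 with lotr-1(xf58), RFK593 with lotr-1(xf60) and RFK594 with lotr-1(xf61), with 1 library per allele and no other allele or treatment named. LOTR-1 is a germ granule protein with LOTUS and Tudor domains. The xf58 deletion keeps the reading frame, whereas xf60 and xf61 lead to a frameshift and a stop. Each strain is 1 outcrossed line, so an allele cannot be told apart from its line or from the worms that were sampled. RNA was treated with RppH, an enzyme that makes small RNAs with a 5′ triphosphate clonable.

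In worms, silencing by small RNAs has a primary and a secondary step. The ERI complex joins the RNA-dependent RNA polymerase RRF-3 with Dicer (DCR-1) and accessory proteins, which copy target mRNAs and cut the product into primary 26G-RNAs. The Argonaute ERGO-1 carries those of oocytes and embryos, and ALG-3 and ALG-4 carry those of sperm. Primary small RNAs then lead other polymerases to make the far more abundant secondary 22G-RNAs on the target. The name eri stands for enhanced RNAi, the response to foreign double-stranded RNA that is stronger when genes of that name are lost. Many germline messengers are copied into 22G-RNAs, and the counts below measure this for the pathway's own genes.

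The deposited values were whole 22G-RNA counts per locus, with 3706296 to 4520488 in a library. Of 22336 loci, 9285 passed the filter on low counts and were tested, and all 9 genes of the pathway were among them. The choice of a common scale decides directions here. With TMM factors, which assume that most loci are unchanged, the median log2 fold change over all tested loci was 0.01, and with total counts it was -0.88, a shift of -0.90. In edgeR's test with TMM factors 58.9% of tested loci passed an adjusted p under 0.1, so that assumption may not be met. Normalized counts below are on the TMM scale, and CPM stands for counts scaled to the library total. The wild-type libraries were close to one another, with a common dispersion of 0.0018 against 0.125 among the mutant libraries, where xf58 stood apart from xf60 and xf61. At lotr-1 itself (WBGene00008385) wild-type had 245, 293 and 275 counts, and the 3 alleles had 88, 20 and 47. These alleles lack part of the counted sequence, so the lower values only check the labels. In whole animals, fewer cells of a type and less small RNA per cell cannot be told apart. As 22G-RNA counts are not mRNA levels, tissue markers do not check the sample here. Of 9 spermatogenesis genes, 5 were tested, of which 2 were called higher (spe-9, spe-41) and 2 lower (spe-44, fer-1) with TMM factors. All 8 oogenesis genes were tested. With TMM factors 0 were called by edgeR, while 3 were higher and 2 lower at an adjusted p under 0.1. Among all tested loci 36.4% were called and 58.9% passed that adjusted p. With total counts 4 oogenesis genes were called lower and 7 were lower at an adjusted p under 0.1, beside 44.6% and 65.4% of all tested loci. The part of these shifts in the results below was not tested.

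The gene eri-6 held nearly all 22G-RNAs of the group. In wild-type it carried 91.9% ± 0.364 (SD, n = 3) of the counts on the 9 genes, and among mutants 94.7% ± 0.716 (SD, n = 3). It ranked 20th of all 22336 loci by the wild-type mean and 37th by the mutant mean. The other 8 genes had between 44 and 473 counts in any wild-type library and between 30 and 278 in any mutant library. Together the 9 genes took 0.547% ± 0.00842 (SD, n = 3) of a wild-type library's 22G-RNAs, and 0.427% ± 0.0141 (SD, n = 3) among mutants. For a single library the counting error of the eri-6 share is small. It was 0.498% (95% exact binomial interval 0.491 to 0.504) in the first wild-type library and 0.407% (0.401 to 0.414) in xf58. Such intervals cover counting error only, since PCR copies were not told apart.

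Counted per length of exon, levels of the 9 genes in wild-type fell into an upper, a middle and a lower range. At the top, eri-6 had 3168 ± 72.8 normalized counts per kb of exon (SD, n = 3). Next in order came rde-4 with 273.9 ± 17.97 and eri-3 with 181.8 ± 18.4 per kb (SD, n = 3 for each). Then followed eri-1 with 57.6 ± 5.4, ergo-1 with 44.6 ± 4.6, rrf-3 with 34.4 ± 4.2, dcr-1 with 27.4 ± 1.1, eri-7 with 25.7 ± 0.85 and eri-5 with 21.4 ± 2.5 per kb (SD, n = 3 for each). The 3 wild-type libraries gave the same order. Among neighbours in this order, the means of dcr-1 and eri-7 alone differed by less than the sum of their SDs. In xf60 and xf61 eri-1 took the second place from rde-4, which came after eri-3. In xf58 the top of the order was that of wild-type down to eri-1, as the plot of levels per kb shows.

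**Figure D1:**
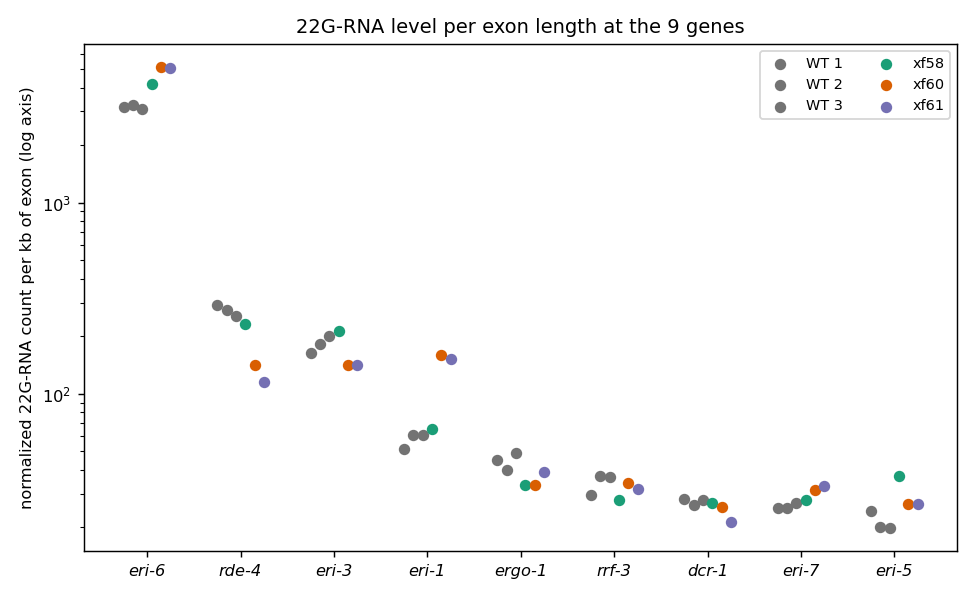
Normalized 22G-RNA count per kb of merged exon (log axis, TMM factors) for the 9 genes, 1 point per library, ordered by the wild-type mean. The gene eri-6 lies between 3097 and 5121 in every library, and eri-1 moves above rde-4 in xf60 and xf61.

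The comparison of the 3 mutant with the 3 wild-type libraries asked whether 22G-RNAs on the pathway's own genes differ when lotr-1 is mutated. With TMM factors, 1 of the 9 genes was called, where a call needs an adjusted p under 0.1 together with a more than 2-fold difference. That gene was eri-1, and it rose. Among all tested loci 36.4% were called, 18.8% higher and 17.6% lower. Without the fold requirement 3 genes were higher (eri-1, eri-5, eri-6) and 2 were lower (rde-4, ergo-1), while rrf-3, dcr-1, eri-3 and eri-7 did not pass, beside 58.9% of all tested loci that passed, 29.3% higher and 29.5% lower. The median log2 fold change of the 9 genes was -0.13.

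On the scale of total counts 4 of the 9 genes were called, all lower (rde-4, ergo-1, rrf-3, dcr-1), beside 53.3% of all tested loci called, 44.6% lower and 8.68% higher. Without the fold requirement 7 were lower and 0 higher, beside 78.0% of loci that passed, 65.4% lower and 12.5% higher. The median of the 9 genes was then -0.998. The 3 mutant libraries lay all above wild-type at 4 genes with TMM factors (eri-1, eri-5, eri-6, eri-7) and all below at 2 (ergo-1, rde-4), beside 61.8% of all tested loci without overlap, 29.7% above and 32.2% below. With total counts 0 genes lay above and 7 below, beside 77.7% without overlap, 12.2% above and 65.5% below. The genes kept their order on both scales except that rrf-3 and dcr-1 changed places. This follows from the scaling, which moves all loci by nearly the same amount against the zero line.

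**Figure D2:**
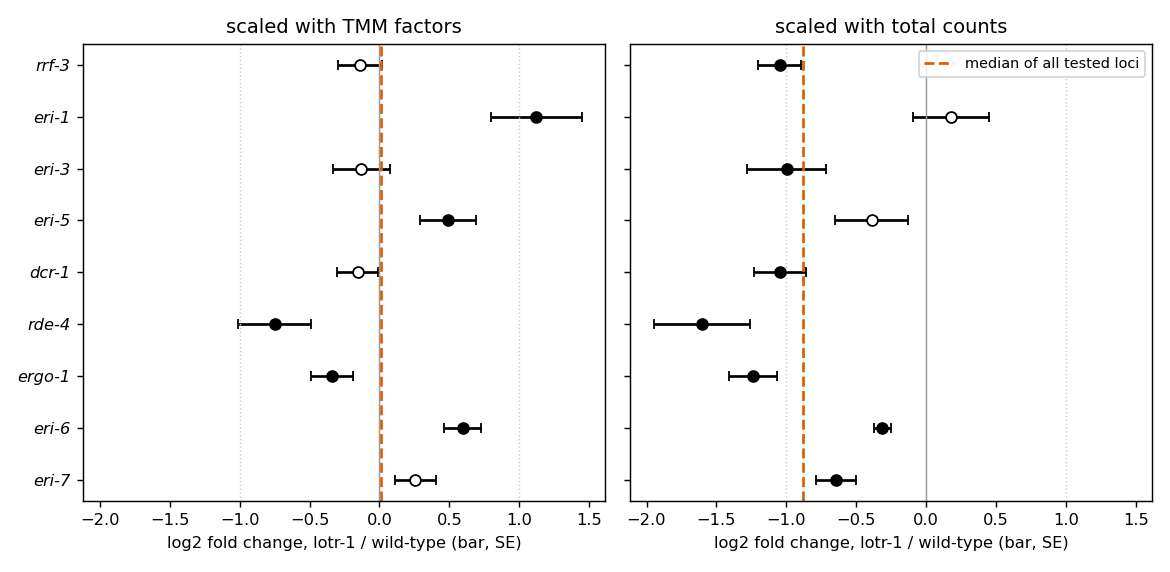
Log2 fold change of lotr-1 over wild-type (3 libraries each) for the 9 genes with its standard error, with TMM factors on the left and total counts on the right. Filled points have an adjusted p under 0.1 (edgeR's quasi-likelihood test), dotted lines mark 2-fold, and the dashed line is the median of all tested loci, at 0.01 and -0.88.

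Polymerase and accessory subunits come first. The gene eri-1 (WBGene00001332), on chromosome IV from 415635 to 419958, encodes a 3′ to 5′ exonuclease. Wild-type libraries had 148, 191 and 162 counts here, xf58 had 104, and xf60 and xf61 had 220 and 235. Normalized, wild-type stood at 113, 134 and 133, xf58 at 144, and xf60 and xf61 at 353 and 333. All mutant libraries lay above all wild-type libraries, xf58 by a small margin and the others by more than 2-fold. The edgeR estimate was a log2 fold change of 1.12 ± 0.32 (standard error) at an adjusted p of 0.0246, or 2.17-fold. Without the xf60 library it was 0.90 and without xf61 0.98, both short of 2-fold, and without xf58 it was 1.43, where 19.9% of all loci tested were called higher and 22.4% lower. With total counts it was 0.18 (adjusted p = 0.576) and the groups overlapped, at 35.5, 42.3 and 42.8 CPM for wild-type, 28.1 for xf58 and 53.6 and 54.4 for the other alleles. Among the 9 genes, eri-1 alone had more raw counts in xf60 and xf61 than in any wild-type library.

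The gene rrf-3 (WBGene00004510), on chromosome II from 8162465 to 8168651, encodes the polymerase that makes the precursors of 26G-RNAs. Wild-type had 164, 205 and 203 normalized counts, and the mutants had 153.5, 189 and 176, so that the groups overlapped with xf58 lowest. Its log2 fold change of -0.14 ± 0.16 did not pass (adjusted p = 0.485). With total counts rrf-3 was called lower at -1.05 (adjusted p = 0.00132), which is -0.17 relative to the median locus.

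ERI-3 and ERI-5 are accessory subunits, and ERI-5, a tandem Tudor protein, links RRF-3 to Dicer. For eri-3 (WBGene00021103), on chromosome II from 1123534 to 1127791, wild-type had 293, 326 and 359 normalized counts. The xf58 library had 384, and xf60 and xf61 had 253 and 255. Thus xf58 lay above all wild-type libraries and the other alleles below all of them, a pattern seen at 8.44% of all tested loci with TMM factors and at 4.51% with total counts. With TMM factors eri-3 averaged to -0.13 ± 0.20 over the 3 alleles (log2 fold change and standard error, adjusted p = 0.617), and without xf58 it was -0.36 (adjusted p = 0.0139).

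The gene eri-5 (WBGene00021419), on chromosome IV from 2390821 to 2396263, had few reads. Raw counts were 58, 52 and 44 for wild-type, 49 for xf58 and 30 and 34 for xf60 and xf61. Normalized, the wild-type libraries stood at 44.3, 36.5 and 36.2 and the mutants at 67.8, 48.1 and 48.2. The mutants lay above wild-type, with the widest gap in xf58. The log2 fold change was 0.49 ± 0.20 with TMM factors (adjusted p = 0.0815), and -0.39 with total counts (adjusted p = 0.211), where the groups overlapped. Leaving out any 1 wild-type library, or xf58, took the adjusted p of eri-5 to between 0.108 and 0.233.

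**Figure D3:**
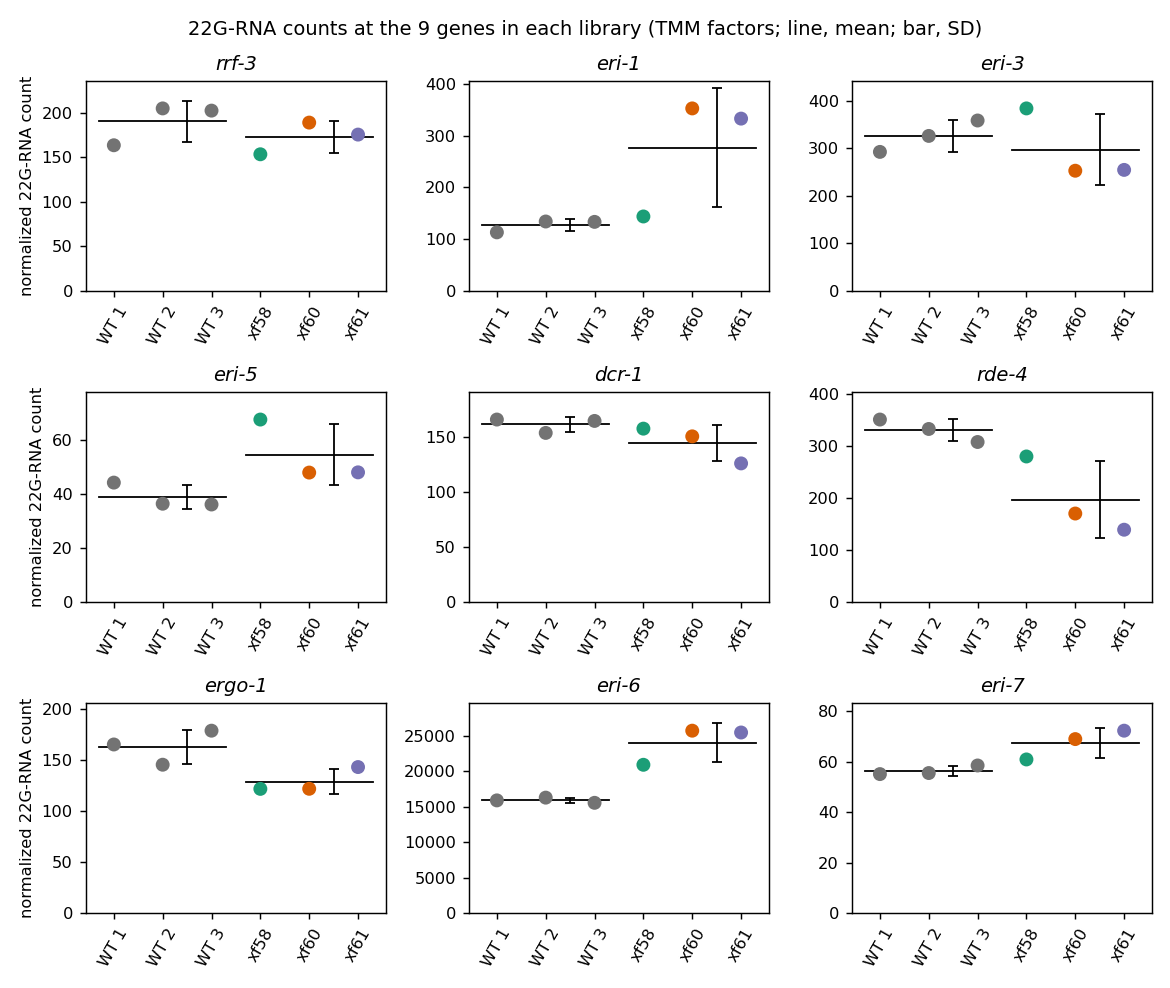
Normalized 22G-RNA count (TMM factors, axes from 0) of each gene in the 3 wild-type libraries (grey) and in xf58, xf60 and xf61, with the mean and SD of each group. The panels show eri-1 at 144 in xf58 against 353 and 333 in the other alleles, and eri-6 at 20884 or more in every mutant library.

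Dicer and its double-stranded RNA binding partner RDE-4 act in the 26G-RNA pathway and also in the response to foreign RNA. The gene rde-4 (WBGene00004326), on chromosome III from 10217302 to 10218646, had 458, 473 and 373 counts in wild-type, 202 in xf58 and 106 and 98 in xf60 and xf61. After normalization these were 350, 332 and 307 for wild-type, 279 for xf58 and 170 and 139 for the other alleles. Every mutant library lay below every wild-type library, xf58 by the least. For rde-4 the log2 fold change was -0.75 ± 0.26 (adjusted p = 0.0461), short of 2-fold. Without xf58 it was -1.10 (adjusted p = 1.56e-06) and was called, whereas without xf60 or xf61 the adjusted p was 0.127 or 0.118. Without the first or the second wild-type library it was 0.124 or 0.110. With total counts rde-4 was called, at -1.60 (adjusted p = 0.00566), which is -0.72 relative to the median locus.

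For dcr-1 (WBGene00000939), on chromosome III from 8071967 to 8080281, the wild-type libraries had 166, 154 and 165 normalized counts and the mutants 158, 151 and 126. The xf58 library lay within the wild-type range and the other mutants below it. Its difference of -0.16 ± 0.14 on the log2 scale did not pass (adjusted p = 0.392). With total counts dcr-1 was called lower at -1.05 (adjusted p = 0.00279), or -0.16 relative to the median locus.

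The Argonaute gene ergo-1 (WBGene00019971), on chromosome V from 1008803 to 1018352, had 216, 207 and 217 counts in wild-type and 88, 76 and 101 among mutants. Normalized, wild-type stood at 165, 145 and 179, xf58 and xf60 both at 122, and xf61 at 143. The groups were just apart. The log2 fold change was -0.34 ± 0.15 at an adjusted p of 0.0993, next to the threshold, and with DESeq2's size factors the adjusted p was 0.115. With each library left out in turn it ranged from 0.0663 to 0.271. With total counts ergo-1 was called lower, at -1.24 (adjusted p = 0.00107). The gene shares 17 bases of exon with pei-2 on the opposite strand, which had 16, 18 and 8 counts in wild-type, 77 in xf58 and 15 and 27 in the other alleles. Counting was antisense to each gene, so reads on one strand did not enter the count of the other.

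ERI-6/7 is a helicase made from separate precursor RNAs of eri-6 and eri-7, which are joined by trans-splicing, and it is needed for the ERGO-1 branch. The genes lie in opposite orientation on chromosome I, eri-6 (WBGene00016561) from 4457375 to 4469460 and eri-7 (WBGene00016566) from 4451194 to 4456805. Raw counts at eri-6 were 20761, 23161 and 18865 for wild-type, 15102 for xf58 and 16028 and 17953 for xf60 and xf61. Normalized, wild-type had 15874, 16262 and 15532 and the mutants 20884, 25684 and 25427. All mutant libraries lay above wild-type on this scale, and all lay below it in raw counts and in CPM. At eri-6 the log2 fold change was 0.59 ± 0.13 with TMM factors (adjusted p = 0.00811), or 1.51-fold, and -0.31 with total counts (adjusted p = 0.00449). Its place was above 72.6% of all tested loci with TMM factors and above 72.4% with total counts. A change of scale moves all loci by nearly the same amount, so such places hardly differ at any locus.

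At eri-7 wild-type had 72, 79 and 71 counts, and the mutants had 44, 43 and 51. Normalized counts were 55.1 to 58.5 for wild-type and 60.8 to 72.2 for the mutants, with no overlap. Its log2 fold change of 0.26 ± 0.15 did not pass with TMM factors (adjusted p = 0.183), and with total counts it was -0.64 (adjusted p = 0.00651). Both parts of the helicase thus differed widely in 22G-RNAs. The ratio of eri-6 to eri-7 counts, into which no scaling of libraries enters, was 288, 293 and 266 for wild-type and 343, 373 and 352 for the mutants. All 3 mutant ratios were above all wild-type ratios, and the ratio was not tested, since it was chosen with the counts known.

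The annotation places sosi-1 (WBGene00016565) inside eri-6, on the opposite strand, from 4460146 to 4462704, with 1131 bases of exon shared with the eri-6 models. It too carried abundant 22G-RNAs, with 4948, 5232 and 4259 counts in wild-type and 4677, 4360 and 4508 among mutants. At sosi-1 the log2 fold change was 0.86 ± 0.12 with TMM factors (adjusted p = 0.00103), and -0.04 with total counts (adjusted p = 0.735). For each read at sosi-1 there were 4.20, 4.43 and 4.43 reads at eri-6 in wild-type, 3.23 in xf58 and 3.68 and 3.98 in the other alleles. This ratio was lower in all 3 mutants and was not tested either. Within 5000 bp beyond eri-7, cps-6 had 778, 742 and 612 counts in wild-type and 278, 129 and 132 among mutants and was called lower, at -1.06 ± 0.28 (adjusted p = 0.0182). It fell short of 2-fold without the first wild-type library, xf60 or xf61, at -0.99, -0.92 and -0.86. The nearby genes eif-3.H, C41D11.9 and cmt-1 were not called, with adjusted p-values from 0.276 to 0.748. The non-coding gene linc-104, also inside eri-6, had 1 count in xf58 and 0 in the other libraries. On the same strand as eri-6, the annotation places T01A4.9 inside it, with 317 bases of exon shared and no count of its own. Whether reads antisense to T01A4.9 entered the count of eri-6 was not tested.

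Single alleles were set against the wild-type mean on the log2 scale, with no test. In xf58, 0 of the 9 genes moved by more than 2-fold, beside 30.5% of all tested loci, 17.3% higher and 13.2% lower. In xf60, eri-1 was past 2-fold at 1.46, beside 41.6% of loci, 19.0% higher and 22.6% lower. In xf61, eri-1 was past it at 1.38 and rde-4 at -1.23, beside 41.5% of loci, 19.4% higher and 22.2% lower. Over all tested loci the xf58 library thus held the fewest changes past 2-fold. Among the 9 genes such changes were too few to rank the alleles. The medians of the 9 genes were 0.11 in xf58, -0.0025 in xf60 and -0.11 in xf61. Of the 9 genes, eri-5 changed most in xf58, with 0.77 against 0.29 in xf60 and 0.30 in xf61. At eri-6 xf58 stood at 0.39, xf60 at 0.69 and xf61 at 0.68.

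**Figure D4:**
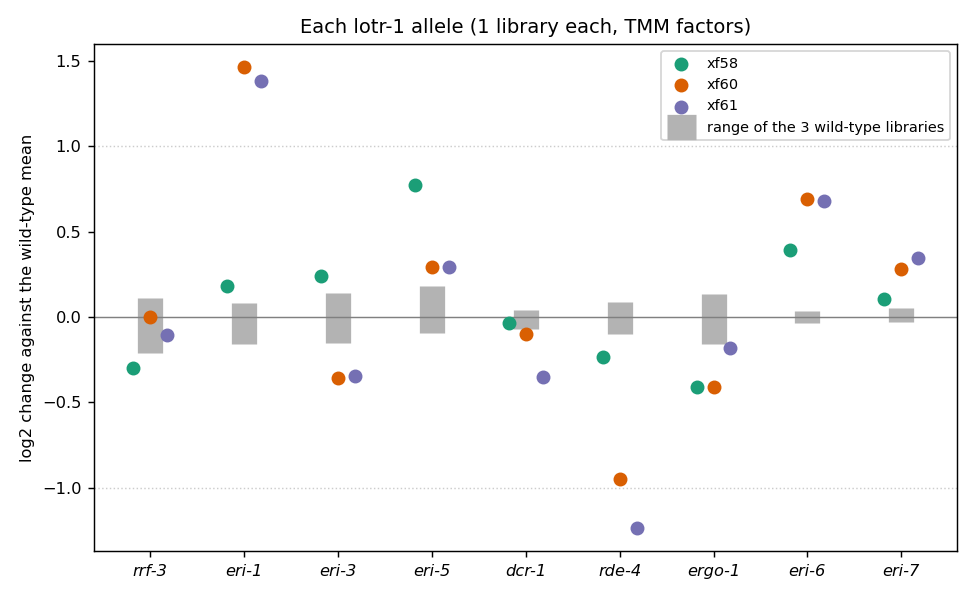
Log2 change of each gene in the xf58, xf60 and xf61 libraries against the wild-type mean (TMM factors, prior count 2), with the range of the 3 wild-type libraries as a grey bar and dotted lines at 2-fold. The xf60 and xf61 points lie close together at eri-1 (1.46 and 1.38) and at eri-3 (-0.36 and -0.35), apart from xf58 (0.18 and 0.24).

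The makeup of the 8 genes other than eri-6 needs no common scale, since each gene is set against the others in the same library. The share of eri-1 was 8.38%, 9.66% and 9.26% for wild-type, 10.5% for xf58, and 26.04% and 25.8% for xf60 and xf61. In contrast, rde-4 held 25.9%, 23.9% and 21.3% in wild-type, 20.4% in xf58 and 12.5% and 10.7% in the other alleles. Hence rde-4 and eri-3 led in wild-type and xf58, and eri-1 led in xf60 and xf61. The 95% exact binomial intervals of eri-1 in xf60 and xf61 started at 23.1% and 22.96%, above the upper bound of 12.6% in xf58. The share of eri-3 was 21.7% to 24.9% in wild-type, 28.1% in xf58 and 18.7% and 19.7% in the other alleles. Shares are parts of a whole, so the higher share of eri-1 in xf60 and xf61 lowers those of the other genes. The lower shares of eri-3 and rde-4 there thus do not by themselves show fewer 22G-RNAs on these genes. Both dcr-1 and rrf-3 kept shares of 9.76% to 14.8% in all 6 libraries.

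**Figure D5:**
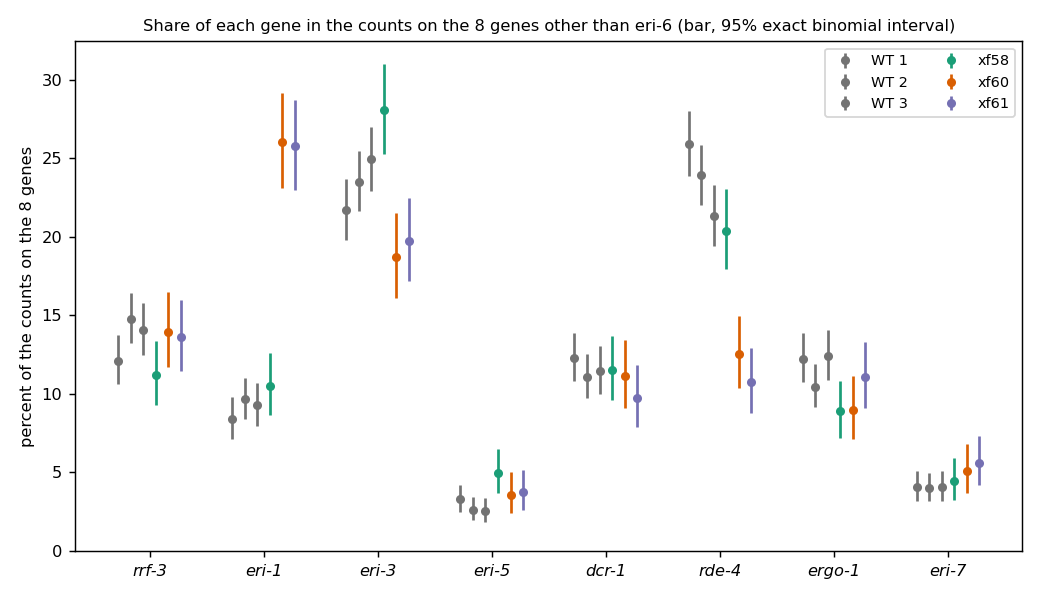
Percent of the counts on the 8 genes other than eri-6 that fell on each gene, 1 point per library with its 95% exact binomial interval. The share of eri-1 is 26.04% and 25.8% in xf60 and xf61 against at most 10.5% in the other libraries, and rde-4 has its lowest shares there.

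Loci with the profile most like that of eri-6 and eri-1 were looked up over the 6 libraries, by the distance between mean-centred log2 levels. For eri-6 the nearest were WBGene00022543, which has no gene model in the annotation used, pvf-1 and mcm-7, at distances of 0.0843, 0.0927 and 0.0979. The nearest gene of the pathway to eri-6 was eri-7, at 0.44. For eri-1, whose log2 fold change was the largest of the 9, the nearest were mtm-9, the histone gene his-74 and lyst-1, at 0.15, 0.24 and 0.27. At mtm-9 wild-type had 53, 74 and 60 counts, xf58 had 38, and xf60 and xf61 had 76 and 82. This likeness to eri-1 is what the distance selected and is no separate result.

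A list of 15 partner genes of the pathway was mostly lower on the TMM scale. Of the 13 that were tested, 1 was called, eri-9, which fell, beside 36.4% of all tested loci called and 17.6% called lower. Without the fold requirement 9 were lower and 1 was higher, beside 29.5% and 29.3% of all tested loci, and ego-1, drh-1 and rde-11 did not pass. The median log2 fold change was -0.64. At eri-9 (WBGene00016143) wild-type had 163, 202 and 180 counts, xf58 had 64, and xf60 and xf61 had 11 and 10. The libraries of xf60 and xf61 were thus far lower than that of xf58. For eri-9 the log2 fold change was -1.76 ± 0.58 (adjusted p = 0.0384), and without xf58 it was -3.12. With total counts 9 of the 13 were called lower and 0 higher, beside 44.6% and 8.68% of all tested loci, and the median locus was itself at -0.88 on that scale.

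Genes whose products work with the ERI complex were among those that were lower. The phosphatase gene pir-1 had 65.8, 71.6 and 84.0 normalized counts in wild-type and 40.1, 25.6 and 48.2 among mutants, a log2 fold change of -0.94 ± 0.24 (adjusted p = 0.0141). The helicase gene drh-3 was lower at -0.35 (adjusted p = 0.0812), and gtsf-1, whose zinc finger protein helps to assemble the complex, at -0.64 (adjusted p = 0.0489). Neither held with every library: leaving out 1 library took the adjusted p as high as 0.255 at drh-3, past 0.1 without the second or the third wild-type library, xf60 or xf61, and as high as 0.156 at gtsf-1, past 0.1 without the first or the third wild-type library or xf61. For henn-1, which methylates the 3′ ends of ERGO-1-bound 26G-RNAs, the value was -0.85 (adjusted p = 0.00419).

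Among polymerases of the secondary step, rrf-1 was lower and ego-1, which lies next to it, did not pass. The rrf-1 gene had 380, 406 and 407 normalized counts in wild-type and 239, 212 and 227 among mutants, at -0.82 ± 0.13 on the log2 scale (adjusted p = 0.00213). The ego-1 gene had 388, 365 and 399 in wild-type and 440, 466 and 435 among mutants, at 0.22 ± 0.13 with TMM factors (adjusted p = 0.196) and -0.68 with total counts. The Tudor gene ekl-1, which also serves 22G-RNA production, was lower at -0.70 (adjusted p = 0.0333, and 0.103 without the third wild-type library). In the response to foreign RNA, the Argonaute gene rde-1 was lower at -0.47 (adjusted p = 0.0208) and rde-10 at -0.91 (adjusted p = 0.0155). The nuclear Argonaute gene nrde-3, which acts downstream of ERGO-1, was the 1 partner that was higher, with 35, 67 and 43 counts in wild-type and 41, 49 and 50 among mutants, at 0.90 with TMM factors (adjusted p = 0.0193) and -0.0021 with total counts (adjusted p = 0.994). The sperm Argonaute genes alg-3 and alg-4 had 2 to 11 counts in any library and were not tested. They are close paralogs, so reads placed at random may have passed between them.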

How the data were processed

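Small RNA was sequenced from 3 wild-type and 3 lotr-1 mutant samples. The authors trimmed adapters with cutadapt 2.4, aligned the reads to WBcel235 with Bowtie 1.2.2, placed reads with several equally good locations at random, and counted with featureCounts 1.6.2 on the Ensembl 96 annotation (processing notes and methods). The deposited values are whole counts without normalization; each counted read has 22 bases, a G at its 5′ end and an antisense position on an exon or transposon. Groups came from the genotype labels. As in the methods, the 3 alleles were treated as triplicates. Nothing states that the wild-type libraries came from separate cultures, so p-values measure only the spread between these libraries. That spread lay mostly between the 3 mutant libraries, 1 per allele, with a common dispersion of 0.125 among mutants against 0.0018 in wild-type. It is thus not the spread between replicates of 1 mutant.

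Counts were tested with edgeR 4.0.16 in R 4.3.3 (filterByExpr, TMM factors, quasi-likelihood test, Benjamini-Hochberg adjustment over 9285 loci). Fold changes without another named tool are from this fit, and standard errors were derived from the F statistic. Normalization divided each count by the effective size of its library and multiplied it by the mean effective size. Single alleles used log2 values with a prior count of 2. Shares have 95% exact binomial intervals (scipy 1.17.1). Alternatives were DESeq2 1.42.0, other scalings, filters and thresholds, a replicate block, and leaving out each library. Positions and exon lengths are from Ensembl 115 on the same build, in which 171 identifiers have no model, so lengths may differ from those counted.

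Genes named were the 9 genes, 15 partner genes, loci that overlap a member or lie within 5000 bp of eri-6 or eri-7, the 3 most similar loci to eri-6 and to the gene with the largest fold change, and lotr-1. Members and lists were chosen with earlier results of these data known. Any locus named beyond this rule was chosen after its values were seen. Figures were drawn with matplotlib 3.10.9.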

Additional observations from a re-analysis of the deposited data

Results flagged for a closer look

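With TMM factors xf58 lay on one side of all wild-type libraries and xf60 and xf61 on the other at 3 named genes. These were eri-3 of the 9 genes, rde-11 of the 13 partner genes tested, and eif-3.H among the neighbours. Of all tested loci 8.44% had this pattern, so it is not particular to these genes. The difference between alleles was not tested, since each has 1 library. At eri-3 the log2 values against the wild-type mean were 0.24 for xf58, -0.36 for xf60 and -0.35 for xf61. The partner gene rde-11 stood at -0.23 for xf58, 0.74 for xf60 and 0.65 for xf61. The gene eif-3.H, near eri-7, stood at -0.54 for xf58, 0.45 for xf60 and 0.28 for xf61. With total counts all 3 genes were lower than the wild-type mean in all 3 alleles, eri-3 at -0.45, -1.41 and -1.29, rde-11 at -0.92, -0.31 and -0.30, and eif-3.H at -1.20, -0.56 and -0.63.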

How the results depend on the processing

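The number of the 9 genes called, 1 in the comparison above, was 4 with total counts, 5 with no fold-change cutoff, and 0 with no count filter, where eri-1 was at 0.97, and in the tests of edgeR and DESeq2 against a 2-fold change. Leaving out each library in turn gave 0 to 2. The number at an adjusted p under 0.1, 5 above, was 0 in both tests against a 2-fold change and 2 to 5 with a library left out. The median log2 fold change of the 9 genes was -0.998 with total counts, -0.27 with no count filter and -0.15 to -0.021 with a library left out. With total counts the sign turned at eri-5 (-0.39), eri-6 (-0.31), eri-7 (-0.64), nrde-3 (-0.0021), ego-1 (-0.68), rde-11 (-0.48), Y38F2AR.10 (-0.47), sosi-1 (-0.042) and eif-3.H (-0.81), all of which lie above the median locus on that scale. It also turned at eif-3.H with no count filter (-0.032). With a library left out, drh-1 ranged from -0.18 to 0.14, Y38F2AR.10 from -0.056 to 0.56 and eif-3.H from -0.090 to 0.37. Beyond the scaling, the cause of these shifts was not tested. DESeq2's size factors, TMM factors without transposon families, a mean of at least 10 counts, DESeq2's test of no change and an adjusted p under 0.05 each gave 1 called gene.

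No pairing by replicate number was seen, with correlations between same-numbered libraries of 0.0073, 0.0293 and -0.0292. Each mutant library is of another allele, and their common dispersion was 0.125 against 0.0018 in wild-type. A pairing could therefore have gone unseen. With the replicate block 1 gene was called and 3 passed an adjusted p under 0.1. At 30 to 79 counts in a library, eri-5 and eri-7 have the widest counting error of the 9 genes.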
